A study of Mus musculus with 9 samples.

Results

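This report describes the transcriptome of wild-type long-term hematopoietic stem cells (LT-HSCs) as they were after transplantation, in 3 of the 9 libraries of the series. The members are the libraries labelled WT, chosen by that label, and no genotype was compared with another. The donors were WT;Mx1-Cre C57BL/6 mice, marked by CD45.2, whose Cre recombinase is under the interferon-inducible Mx1 promoter but has no floxed allele to act on. In the study, whole bone marrow cells were given to each lethally irradiated B6.SJL recipient (CD45.1), aged 6 to 8 weeks, and after engraftment every recipient received 250 μg of pIpC, a double-stranded RNA that induces interferon, in 2 injections. Bone marrow was taken 4 weeks after pIpC, that of the 7 recipients of a group was pooled according to the methods, and donor cells were sorted as lineage-negative, cKit-positive, Sca1-positive, Flk2-negative, CD48-negative and CD150-positive. RNA from the sorted cells was amplified to cDNA and sequenced (the labels call the molecule polyA RNA, the methods name total RNA), and each biological replicate is labelled as sequenced in 2 technical replicates.

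LT-HSCs are the rare bone marrow cells that can rebuild all blood lineages for the life of a recipient. In an undisturbed animal most of them do not divide, and transcription factors such as Runx1, Gata2, Meis1, Erg and Mecom maintain them, while signals through Kit, the receptor of stem cell factor, support their survival and self-renewal. Transplantation and interferon both push them into cycle, and their low-level transcription of genes of several blood lineages before commitment is known as lineage priming.

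The 3 libraries held 60386097, 47789094 and 40617691 counts on genes for WT replicates 1, 2 and 3. The deposited table lists 47643 genes, of which 21616 to 22446 had at least 1 count in a library. Levels are given as RPKM, the counts per kilobase of exon, scaled to the size of the library, with the library totals adjusted by TMM factors (0.94 to 1.06), so that genes of different length can be set side by side. A gene was called expressed at 1 RPKM or more in all 3 libraries. Values that follow each other without a label are for WT replicates 1, 2 and 3.

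The libraries stood apart from each other in genes of the sex chromosomes and of immunoglobulins. Xist, the RNA that coats the inactive X chromosome of females, was at 1.87, 309 and 2.62 RPKM, and Ddx3y, a gene of the Y chromosome, was at 6.57, 0.07 and 6.06 RPKM. WT replicate 2 therefore carried the female pattern and WT replicates 1 and 3 the male pattern. Donors of both sexes were used in the study, and how the pooled cells were divided into replicates is not given in the sources used here. Igkc, the constant region of the immunoglobulin kappa light chain, was at 242, 249 and 1.30 RPKM, so that WT replicate 3 stood apart from both others. Each pair of libraries correlated at a Pearson coefficient of 0.90 to 0.92 on the log2 scale over 6281 protein-coding genes, which is a description across genes and not over independent samples. The chi-square per gene between pairs was 135 to 173, where counting error alone would give about 1, and the common biological coefficient of variation was 0.43. Taken over genes as a whole, the spread among libraries was thus far beyond counting error, while depth still limits genes near the floor.

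Of 47224 genes with a gene model, 11158 were expressed, which is 23.6%. Among protein-coding genes 9417 of 21620 were expressed, or 43.6%, and this share is the background for every list below. By mean level, 223 protein-coding genes reached 100 RPKM or more, 3567 lay from 10 to 100, 6590 from 1 to 10 and 5284 under 1. No count was seen in any of the 3 libraries for 5956 protein-coding genes.

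The RNAs with the most counts were not messenger RNAs. The mitochondrial ribosomal RNAs mt-Rnr2 and mt-Rnr1 took 14.4% to 16.8% of the counts of a library together. The gene model Gm26917, annotated as a long noncoding RNA, took a further 5.02% to 6.28%. Which RNA its reads come from was not examined. Malat1, an abundant nuclear noncoding RNA, was at 888, 951 and 1075 RPKM. The 100 genes with the most counts took 36.1%, 34.2% and 37.6% of the 3 libraries, and protein-coding genes as a whole took 72.5% to 75.2%.

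Among protein-coding genes, the highest mean levels belonged to housekeeping genes side by side with genes of the granulocyte lineage and immediate early genes. The mitochondrially encoded cytochrome oxidase subunit mt-Co1 was at 3965, 3061 and 3420 RPKM and the cytochrome b gene mt-Cytb at 2575, 2402 and 2446 RPKM. B2m, the light chain of MHC class I, was at 1581, 1725 and 1792 RPKM, and the actin gene Actb at 1596, 1363 and 1610 RPKM. These 4 genes differed by no more than 1.30-fold among libraries. The elongation factor Eef1a1 (1264, 1288 and 1394 RPKM), the chaperone Hsp90ab1, the chromatin protein Ptma, the histone gene Hist1h4d and the ribosomal protein gene Rpl4 were also among the 20 highest. Of 82 cytosolic ribosomal protein genes 79 were expressed, and of 65 histone genes 50 were. Only 9 of the 13 mitochondrially encoded protein genes reached the threshold, and how reads that map to more than one place were treated is not given in the sources used here.

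Granulocyte genes made up 4 of these 20 and were far less even. S100a9, a calcium-binding alarmin of neutrophils, was at 263, 452 and 3903 RPKM, and Ngp, a protein of neutrophil granules, at 141, 308 and 3247 RPKM. Mpo, myeloperoxidase, ran the other way at 2737, 981 and 510 RPKM, as did Elane, neutrophil elastase, at 2452, 823 and 558 RPKM. WT replicate 3 was the highest for the first pair and the lowest for the second.

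**Figure D1:**
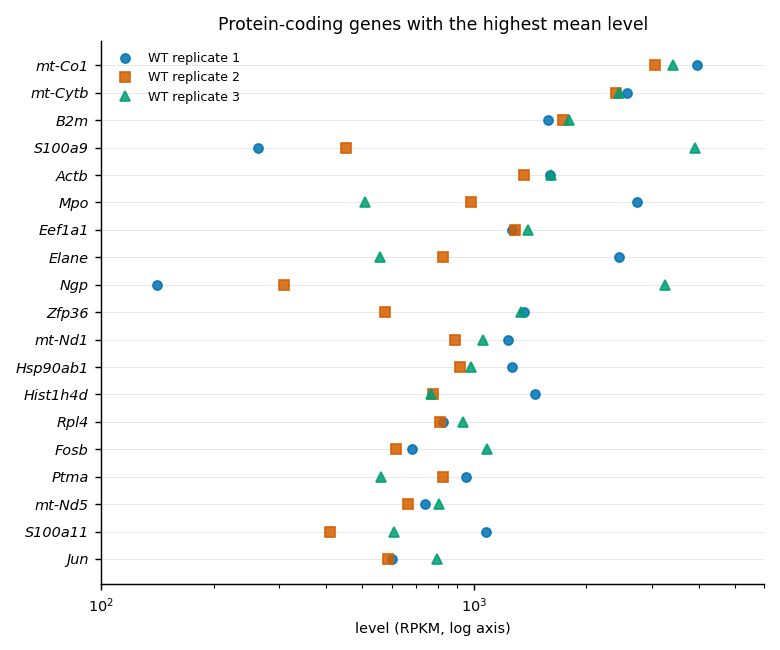
Level in RPKM (log axis) of 19 of the 20 protein-coding genes with the highest mean, with 1 symbol for each WT library. Most genes lie close together in the 3 libraries, whereas S100a9 and Ngp are highest in WT replicate 3 and Mpo and Elane in WT replicate 1.

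The sorting markers that the gate selected for were all present as RNA. Kit, the stem cell factor receptor, was at 55.3, 58.2 and 57.0 RPKM (56.8 ± 1.49, SD, n = 3), which is among the most even values of the table. Ly6a, which encodes Sca1, was at 18.0, 17.4 and 24.3 RPKM, and Slamf1, which encodes CD150, at 4.29, 7.98 and 7.57 RPKM. Slamf1 was thus low in all 3 libraries, and lowest in WT replicate 1.

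The markers selected against differed widely in level. Cd48 RNA was at 16.1, 20.2 and 18.9 RPKM, which is 2.5 to 3.75 times the level of Slamf1 within the same library, although the gate took cells without surface CD48. Flt3, which encodes the progenitor receptor Flk2, was at 19.5, 4.54 and 6.65 RPKM, with WT replicate 1 well above the others. Genes of the T cell markers were near 0, whereas the neutrophil marker Ly6g was not in every library. The T cell genes Cd3e and Cd8a had no count in any library, which allows up to 0.018 and 0.020 RPKM in the shallowest library (3 counts, counting error only). Cd4 reached at most 0.17 RPKM. Ly6g, a marker of mature neutrophils, was at 0.019, 1.38 and 7.46 RPKM, so that it was near 0 in WT replicate 1 and well above the threshold in WT replicate 3.

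Of 24 marker genes of LT-HSCs, 21 were expressed (87.5%, against 43.6% of protein-coding genes). Their median mean level was 7.05 RPKM, and leaving out 1 library gave 21 to 22. Hlf, a transcription factor restricted to primitive cells, was at 60.9, 59.9 and 65.2 RPKM, and Mecom, which is required for their maintenance, at 7.98, 9.90 and 9.86 RPKM. Both were even among libraries. Procr, the endothelial protein C receptor used to sort stem cells, was at 19.8, 24.7 and 27.9 RPKM. Mllt3, which sustains self-renewal, was at 7.42, 11.5 and 11.3 RPKM, and the guanine exchange factor Fgd5 was at 3.46, 4.00 and 3.40 RPKM. Of the 24 genes, 18 were lowest in WT replicate 1 and none was highest there. WT replicate 1 was also the highest library for 7 of 12 genes of multipotent progenitors, but the lowest for 2 of them. The part of such cells in the lower marker levels was not tested. The 3 genes that missed the threshold in at least 1 library were Hoxb5 (0.90, 2.65 and 1.5 RPKM), Neo1 (0.94, 2.07 and 0.43 RPKM) and Cdkn1c (0.41, 0.59 and 1.63 RPKM), the last encoding the cell cycle inhibitor p57. Cd9 and Vwf varied more than 4-fold, with Cd9 highest in WT replicate 3 (3.41, 8.93 and 17.8 RPKM) and Vwf, the platelet adhesion protein of platelet-biased stem cells, highest in WT replicate 2 (8.01, 18.2 and 3.55 RPKM).

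**Figure D2:**
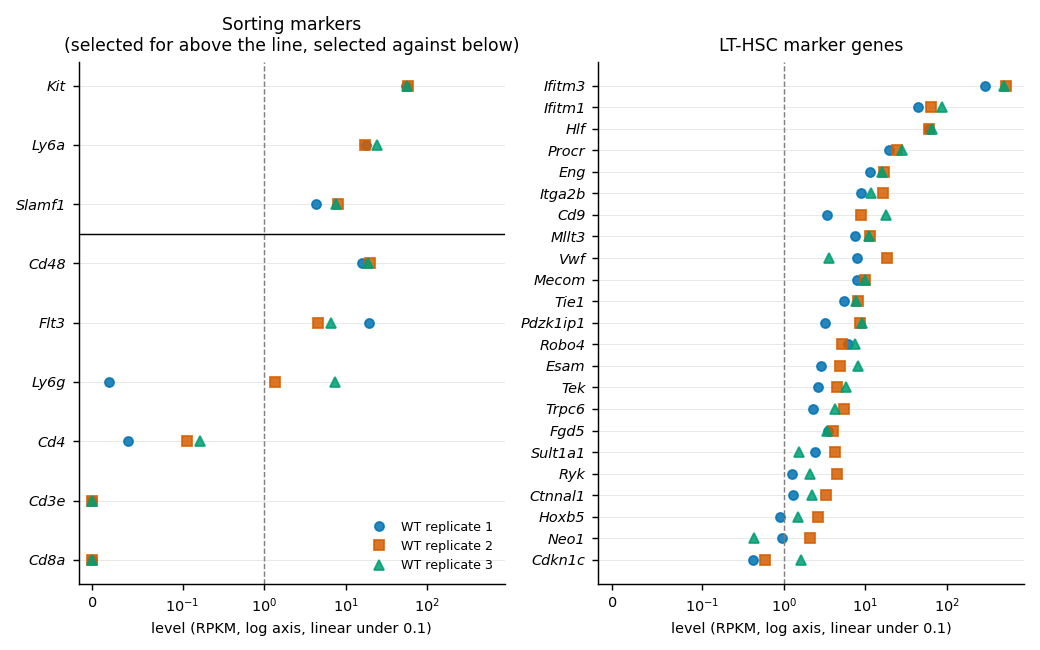
Level in RPKM (log axis, linear under 0.1) of 9 sorting markers and 23 LT-HSC marker genes in each WT library, with the dashed line at 1 RPKM. Kit and Hlf lie nearly on one point, Cd48 lies to the right of Slamf1, and Cd3e and Cd8a lie at 0.

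Nearly all transcription factors known to regulate HSCs were expressed, 31 of 32. Lmo2, a bridging protein of the Tal1 transcription complex, was at 86.1, 101 and 116 RPKM, and Lyl1 and Tal1 were at 93.7, 49.0 and 64.6 and at 16.9, 26.1 and 30.8 RPKM. The ETS factors Erg (79.1, 70.1 and 104 RPKM) and Fli1 (80.6, 71.1 and 69.7 RPKM) and the repressor Etv6 (64.1, 60.7 and 71.4 RPKM) were of the same order. Runx1 was nearly constant at 20.2, 19.9 and 19.4 RPKM. Myc, which drives growth, was at 163, 140 and 104 RPKM, while Mycn was at 5.37, 10.9 and 4.69 RPKM. The only member under 1 RPKM was Ndn (0.033, 0.57 and 0.15 RPKM), a growth suppressor found in quiescent stem cells. Of 6 genes of fetal HSCs only Hmga2 was expressed (2.19, 1.59 and 2.99 RPKM), and Lin28b, the regulator of the fetal program, was at 0.026 RPKM or less.

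Cell cycle genes were present in all 3 libraries. All 20 of the list were expressed, and the summed level differed by 1.19-fold among libraries. Mki67, which is absent from resting cells, was at 171, 142 and 130 RPKM, and the replication clamp Pcna was at 142, 156 and 172 RPKM. The mitotic kinase gene Plk1 was at 58.0, 34.3 and 32.1 RPKM, and Top2a, the topoisomerase of dividing cells, at 79.1, 60.1 and 52.5 RPKM. WT replicate 1 was the highest in these mitotic genes, while for Pcna it was the lowest. The kinase Cdk6, which governs exit from quiescence, was at 275, 208 and 179 RPKM, from 4.40 to 8.27 times Cdk4 within a library. Ccnd2 exceeded Ccnd3 in all 3 libraries (1.48- to 3.92-fold), and Ccnd1 was the lowest of the D-type cyclins at 8.76, 8.52 and 7.34 RPKM. With the longest transcript as gene length the mean log2 ratio of Ccnd2 to Ccnd3 was 0.72, against 1.34. The order in WT replicate 3, where the ratio was 1.48, is therefore uncertain.

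Inhibitors of the cyclin-dependent kinases were uneven. Cdkn2d was at 21.0, 17.2 and 19.7 RPKM and Cdkn1b, which encodes p27, at 10.3, 12.2 and 14.4 RPKM. Cdkn1a, the p53 target p21, was at 17.6, 3.84 and 17.2 RPKM, with WT replicate 2 below the others. Cdkn1c was from 8.86 to 24.8 times lower than Cdkn1b. Cdkn2a and Cdkn2b, the genes of the senescence locus, had no count in any library.

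Immediate early genes, which respond within minutes to signals and to cell isolation, were among the most abundant messengers, and all 15 of the list were expressed. Zfp36, which binds AU-rich messengers for decay, was at 1356, 576 and 1336 RPKM. The AP-1 genes Fosb (681, 618 and 1083 RPKM), Jun (603, 587 and 797 RPKM) and Fos (488, 298 and 595 RPKM) followed, and Egr1, which restrains HSC division, was at 471, 309 and 565 RPKM. WT replicate 2 was the lowest library for 14 of the 15 genes and WT replicate 3 the highest for 13. Nr4a1 varied the most of the list, at 105, 45.9 and 221 RPKM.

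Interferon-stimulated genes were present at a wide range of levels at 4 weeks after pIpC. Of 18 genes 12 were expressed (66.7%, against 43.6% of protein-coding genes), 9 had a mean of at least 5 RPKM, and the median mean level was 5.18 RPKM. The highest was Ifitm3, a membrane protein that restricts viruses and is also listed among LT-HSC markers, at 297, 539 and 507 RPKM. Its relative Ifitm2 was at 424, 323 and 391 RPKM. Ifi27 was next in the list, at 15.7, 18.2 and 42.7 RPKM. Isg15, a ubiquitin-like modifier, was at 3.14, 3.36 and 4.63 RPKM, and Ifit1 at 3.67, 2.07 and 2.00 RPKM. Mx1, the gene whose promoter drives Cre in these mice, was at 0.26, 1.84 and 0.11 RPKM, so that only WT replicate 2 passed the threshold.

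Genes of other cells were examined with 9 lists of 120 genes in all, because the gate should remove mature cells. Of these genes 54 were expressed, or 45%, close to the 43.6% of all protein-coding genes, and leaving out 1 library gave 53 to 60. The lists differed widely: 14 of 18 neutrophil genes, 10 of 15 megakaryocyte and platelet genes and 9 of 15 monocyte, macrophage and dendritic genes were expressed. For erythroid genes the count was 7 of 16, for mast cell, basophil and eosinophil genes 4 of 9, for T and NK cell genes 4 of 15, for B cell genes 3 of 13, for endothelial genes 2 of 9 and for stromal genes 1 of 10. In bulk samples, few cells with much of an RNA and many cells with little of it cannot be told apart.

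The neutrophil list had by far the highest summed level, 6878, 3514 and 11498 RPKM. Monocyte, macrophage and dendritic genes summed to 290, 387 and 929 RPKM, of which the lysozyme gene Lyz2 gave 88.6, 209 and 800 RPKM and the monocyte surface gene Ly6c2 gave 111, 61.5 and 35.1 RPKM. Ly6c2 was the higher of them in WT replicate 1 and Lyz2 in the others. Cd74, the invariant chain of MHC class II, was at 32.8, 36.3 and 36.9 RPKM, the lysosomal gene Cd68 at 23.0, 31.4 and 20.3 RPKM and the MHC class II gene H2-Ab1 at 8.52, 14.8 and 18.7 RPKM. Of the 15 genes 7 had a mean of at least 5 RPKM. Csf1r, the receptor of the macrophage growth factor, was at 6.27, 3.92 and 1.93 RPKM, the dendritic cell gene Itgax at 0.25 RPKM or less and Siglech at 0. Megakaryocyte and platelet genes summed to 149, 369 and 124 RPKM. Pf4, platelet factor 4, gave the largest part (62.6, 240 and 27.5 RPKM), and the platelet receptor Gp6 was at 0.0030 RPKM in WT replicate 1 and at 0 in the others.

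Erythroid genes summed to 94.7, 255 and 152 RPKM, with the highest mean for Car2 (59.0, 89.8 and 101 RPKM), a carbonic anhydrase also used by other cells. Gata1, the erythroid and megakaryocyte factor, was at 1.97, 11.3 and 6.08 RPKM. Of the hemoglobin genes, Hbb-bt was expressed, at 2.60, 6.22 and 12.0 RPKM, while Hbb-bs was at 0.023, 2.03 and 0.42 RPKM and Hba-a1 at 0.87 RPKM or less. WT replicate 2 was the highest for Gata1, Car1 (1.45, 76.9 and 5.88 RPKM), Klf1 (0.24, 3.43 and 0.69 RPKM) and Ermap (0.033, 8.47 and 0.60 RPKM), all genes of the erythroid program. The hemoglobin genes are near-identical copies, so the split of reads between them is uncertain.

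Few lymphoid genes passed the threshold. Ighm, the heavy chain of IgM, was at 81.8, 37.0 and 14.0 RPKM, and Dntt, the terminal transferase of early lymphoid progenitors, at 13.1, 2.62 and 1.26 RPKM, both highest in WT replicate 1. Cd79b, a component of the B cell receptor, was also expressed, at 7.53, 3.30 and 5.42 RPKM. The B cell factors Pax5 and Ebf1 were at 0.34 RPKM or less, and Ms4a1, which encodes CD20, had no count. Of the T and NK cell list, the cytotoxic granule gene Nkg7 gave most of the sum, at 265, 123 and 82.9 RPKM, while Cd3e, Cd3g, Cd8a and Gzma had no count in any library. Cd3d, another CD3 chain gene, had 20, 92 and 272 counts, or 0.19, 0.999 and 3.69 RPKM, and was thus highest in WT replicate 3. Endothelial and stromal sums were low and even (10.3, 11.1 and 11.8 RPKM, and 3.10, 3.16 and 2.64 RPKM), with the vascular cadherin Cdh5 at 0.076 RPKM or less and the endothelial list carried by Pecam1 at 8.39, 8.89 and 9.29 RPKM, a gene that blood cells use as well. With the longest transcript as gene length the endothelial sum averaged 19.2 RPKM, against 11.1 RPKM.

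**Figure D3:**
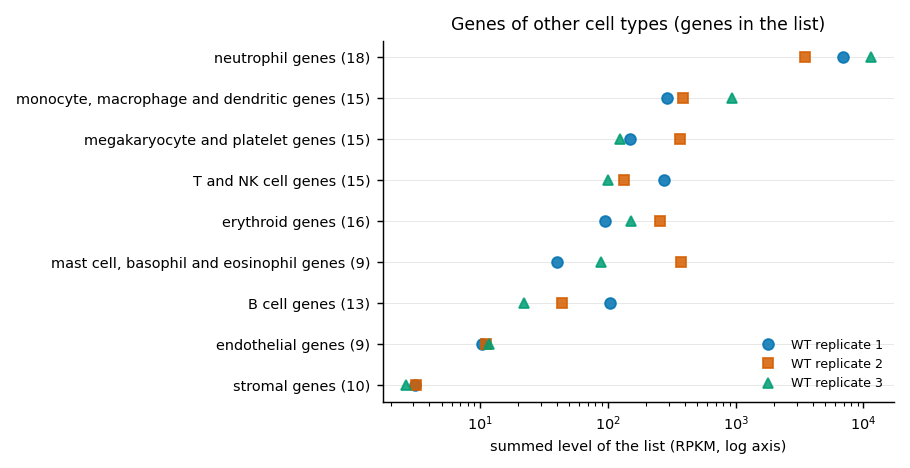
Summed level in RPKM (log axis) of 9 lists of genes of other cell types in each WT library, with the number of genes of the list in parentheses. Neutrophil genes lie above all other lists in every library, the endothelial and stromal sums nearly coincide, and a different library is highest for the eosinophil-containing, neutrophil and B cell lists.

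Genes that marked progenitors rather than stem cells were also present. Of 12 genes of multipotent progenitors 11 were expressed, and the list summed to 3495, 1401 and 861 RPKM, of which Mpo gave most. Cd27 was at 33.8, 42.9 and 53.8 RPKM and Cd34, a marker of short-term stem cells and progenitors, at 15.2, 9.67 and 22.0 RPKM. Cebpa, the factor of granulocyte and monocyte commitment, was at 19.7, 9.58 and 5.18 RPKM. The interleukin-7 receptor gene Il7r, a marker of lymphoid progenitors, was at 0.038 RPKM or less. WT replicate 1 was the highest library for Mpo, Cebpa, Flt3 and Dntt. Of the 12 genes of the list 7 were highest there and 2 were lowest there.

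Of the 18 neutrophil genes, 16 were split after their values were seen into 4 genes of the primary granules, which are made in promyelocytes, and 12 genes that neutrophil precursors use later. The 4 primary granule genes Mpo, Elane, Prtn3 and Ctsg summed to 6109, 2296 and 1370 RPKM, and all 4 were highest in WT replicate 1 and lowest in WT replicate 3. The 12 later genes summed to 662, 1157 and 10015 RPKM, and all 12 were highest in WT replicate 3 and lowest in WT replicate 1. The libraries thus differed 4.46-fold in the first sum and 15.1-fold, in the opposite order, in the second. Prtn3, proteinase 3, was at 328, 188 and 100 RPKM and Ctsg, cathepsin G, at 592, 305 and 201 RPKM. Of the later genes, Ltf, lactoferrin of the secondary granules, was at 3.30, 29.7 and 331 RPKM, a 100-fold range, and Camp, the cathelicidin gene, was at 33.4, 44.4 and 504 RPKM. Lcn2, which binds bacterial siderophores, was at 9.19, 25.2 and 216 RPKM, and the gelatinase gene Mmp9 at 0.0099, 1.57 and 6.54 RPKM. The other members of the list are Fcnb, a ficolin gene (74.3, 41.8 and 91.6 RPKM), and Cebpe, which directs secondary granule genes (33.0, 18.9 and 21.1 RPKM), and both were lowest in WT replicate 2 and had neither order. Because the split was made with these values in view, the uniform order within each group follows in part from the choice of its members and is a description.

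Eosinophil genes formed another group with its own library. Prg2, the major basic protein, was at 25.5, 312 and 67.4 RPKM, and Epx, eosinophil peroxidase, at 4.14, 39.5 and 5.29 RPKM. With the eosinophil ribonuclease genes Ear1, Ear2 and Ear6 they summed to 30.1, 427 and 87.4 RPKM, and all 5 were highest in WT replicate 2. The Ear genes were added after their values were seen, so this shared order follows in part from the choice of members. The Ear genes are close paralogs, and their separate values depend on how shared reads were counted.

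**Figure D4:**
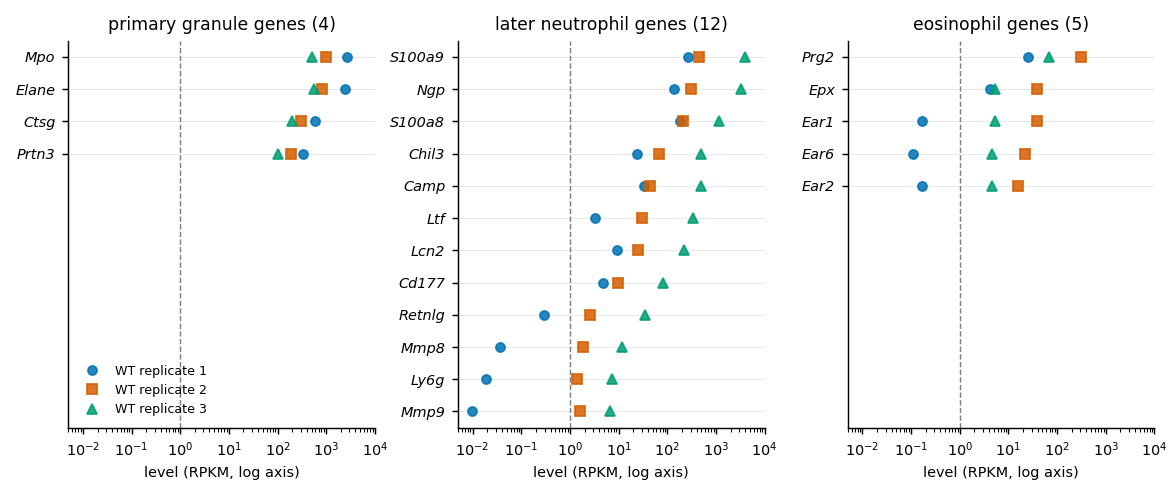
Level in RPKM (log axis) of 4 primary granule genes, 12 later neutrophil genes and 5 eosinophil genes in each WT library, with the dashed line at 1 RPKM. The primary granule genes are highest in WT replicate 1, the later neutrophil genes in WT replicate 3 and the eosinophil genes in WT replicate 2.

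The promoters of these genes are described by the same groups. Because the neutrophil groups were split after their levels were seen, their opposite orders are in part built in. The motif counts are therefore a description of these groups only. RefSeq promoters of the build GRCm38.p6 were found for all 4 primary and 11 of the 12 later genes, and the 250 bases before the start were searched on both strands, shared bases allowed, for TTGCNNAA, letters bound by C/EBP factors, and AGGAAG, letters bound by ETS factors such as PU.1. TTGCNNAA was in 7 of the 11 later promoters and in 0 of the 4 primary ones, where 9.56% of all 32851 promoters hold it. AGGAAG was in all 4 primary and in 7 of the 11 later promoters, where 29.48% of all promoters hold it. Of the eosinophil genes, which had another order among the libraries, 4 of 5 had an entry, and 2 of these 4 held TTGCNNAA and 2 held AGGAAG. All these counts took the whole 250 bases before the RefSeq start. For some genes part of them lies after the start in the gene models used for the levels, and for Prtn3, Lcn2 and Ear1 all of them. The windows below are those of 2 primary genes, Elane (plus strand, chr10:79886062-79886246) and Ctsg (minus strand, chr14:56102575-56102824), and of 2 later genes, Ltf (plus strand, chr9:111019042-111019270) and S100a9 (minus strand, chr3:90695722-90695971), cut at the start of the gene in either annotation, 5′ to 3′, with matches to either motif in capitals.
Elane: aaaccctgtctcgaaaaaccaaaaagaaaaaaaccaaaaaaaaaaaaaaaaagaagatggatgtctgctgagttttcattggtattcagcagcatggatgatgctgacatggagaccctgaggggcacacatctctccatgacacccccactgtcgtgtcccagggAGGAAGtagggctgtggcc
Ctsg: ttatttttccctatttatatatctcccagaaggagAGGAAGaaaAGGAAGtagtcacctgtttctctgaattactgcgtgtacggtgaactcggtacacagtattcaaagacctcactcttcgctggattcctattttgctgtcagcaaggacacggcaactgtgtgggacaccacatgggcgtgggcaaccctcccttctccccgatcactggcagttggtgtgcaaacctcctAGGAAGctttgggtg
Ltf: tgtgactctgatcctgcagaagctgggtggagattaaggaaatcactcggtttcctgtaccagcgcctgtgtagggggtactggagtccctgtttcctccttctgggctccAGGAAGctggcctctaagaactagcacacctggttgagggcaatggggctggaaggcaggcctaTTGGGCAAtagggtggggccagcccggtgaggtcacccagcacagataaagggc
S100a9: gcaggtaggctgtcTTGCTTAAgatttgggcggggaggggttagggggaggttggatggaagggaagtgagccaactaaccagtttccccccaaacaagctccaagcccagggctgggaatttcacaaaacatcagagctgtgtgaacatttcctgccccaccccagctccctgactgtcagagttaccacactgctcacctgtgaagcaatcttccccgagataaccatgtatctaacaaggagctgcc
Elane held 1 AGGAAG and Ctsg 3. Ltf held 1 match to each motif, and S100a9 held 1 match to TTGCNNAA alone. A match to these letters is a description of the sequence and no sign that a factor was bound.

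Families of signaling genes were described by their most abundant member, since the series was made to study class I PI3K. In WT LT-HSCs the catalytic subunits Pik3cg (26.5, 15.1 and 20.2 RPKM) and Pik3cd (23.2, 16.3 and 18.5 RPKM) were the highest and could not be told apart, as Pik3cd was the higher of them in 1 library only. Pik3cb was at 9.25, 6.45 and 8.66 RPKM and Pik3ca at 7.48, 6.92 and 5.20 RPKM. Pik3cd exceeded Pik3ca 2.35- to 3.56-fold and Pik3cb 2.13- to 2.53-fold within a library, and the levels of the pairs did not overlap. Pik3cb and Pik3ca overlapped. The class II gene Pik3c2g had counts in WT replicate 1 alone, at 0.024 RPKM.

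The regulatory subunit Pik3r1, which encodes p85 alpha, was at 26.9, 22.5 and 22.4 RPKM, from 6.07 to 18.1 times Pik3r2. Among phosphatases that reduce the PI3K product, Inpp5d, which encodes SHIP1, was at 33.5, 15.9 and 19.3 RPKM. Inpp4b was low at 0.38, 1.34 and 1.28 RPKM. Downstream, the AKT kinase genes Akt1 (24.0, 15.8 and 16.5 RPKM) and Akt2 (14.9, 11.5 and 13.4 RPKM) were of similar level, with Akt1 the higher of them in all 3 libraries. Of the FOXO factors that AKT holds out of the nucleus, Foxo3 was at 26.1, 23.2 and 26.4 RPKM, from 7.52 to 10.4 times Foxo1.

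Among lineage factors, Gata2 (34.6, 50.2 and 58.7 RPKM) exceeded Gata1 4.46- to 17.6-fold, and Gata4 and Gata5 had no count. The RUNX genes Runx1, Runx2 and Runx3 overlapped in their levels, while their shared partner Cbfb was above them at 43.1, 45.5 and 40.1 RPKM. Ikzf1, which encodes the lymphoid factor Ikaros, was at 87.9, 54.5 and 62.4 RPKM, from 6.31 to 12.7 times Ikzf2. Meis1 was at 18.1, 28.2 and 28.2 RPKM, and Meis2 was at 0.019 RPKM or less. The survival gene Mcl1 was at 107, 105 and 132 RPKM, from 9.02 to 10.6 times Bcl2.

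Genes of the Hox clusters were counted at the same threshold. In Hoxa 5 of 11 genes passed (45.5%), near the 43.6% of all protein-coding genes and no result about this cluster. In Hoxb 1 of 10 passed, in Hoxc 0 of 9 and in Hoxd 0 of 9. All 9 Hoxd genes were without a count in every library. Hoxa9, which expands progenitors when raised, was at 4.22, 5.06 and 7.19 RPKM, Hoxa7 at 8.05, 3.84 and 4.72 RPKM and Hoxa6 at 2.73, 12.0 and 4.88 RPKM. These ranges overlapped, so that no order among them could be given. Hoxb4 was the only Hoxb gene over the threshold in all libraries, at 5.22, 5.45 and 2.76 RPKM.

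Receptors for cytokines and for the niche were broadly expressed, 18 of 22 and 15 of 16. Csf3r, the receptor of the granulocyte growth factor, was the highest cytokine receptor by mean, at 77.0, 44.6 and 56.7 RPKM. Ifnar2 and Ifnar1, the subunits of the type I interferon receptor, were at 25.4, 15.7 and 18.1 and at 9.35, 8.42 and 7.39 RPKM. Cxcr4, which retains HSCs in the marrow, was at 41.7, 38.2 and 27.5 RPKM, and the integrin gene Itga6 at 19.9, 19.7 and 21.2 RPKM. Cdh2, the N-cadherin gene, had no count in any library.

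**Figure D5:**
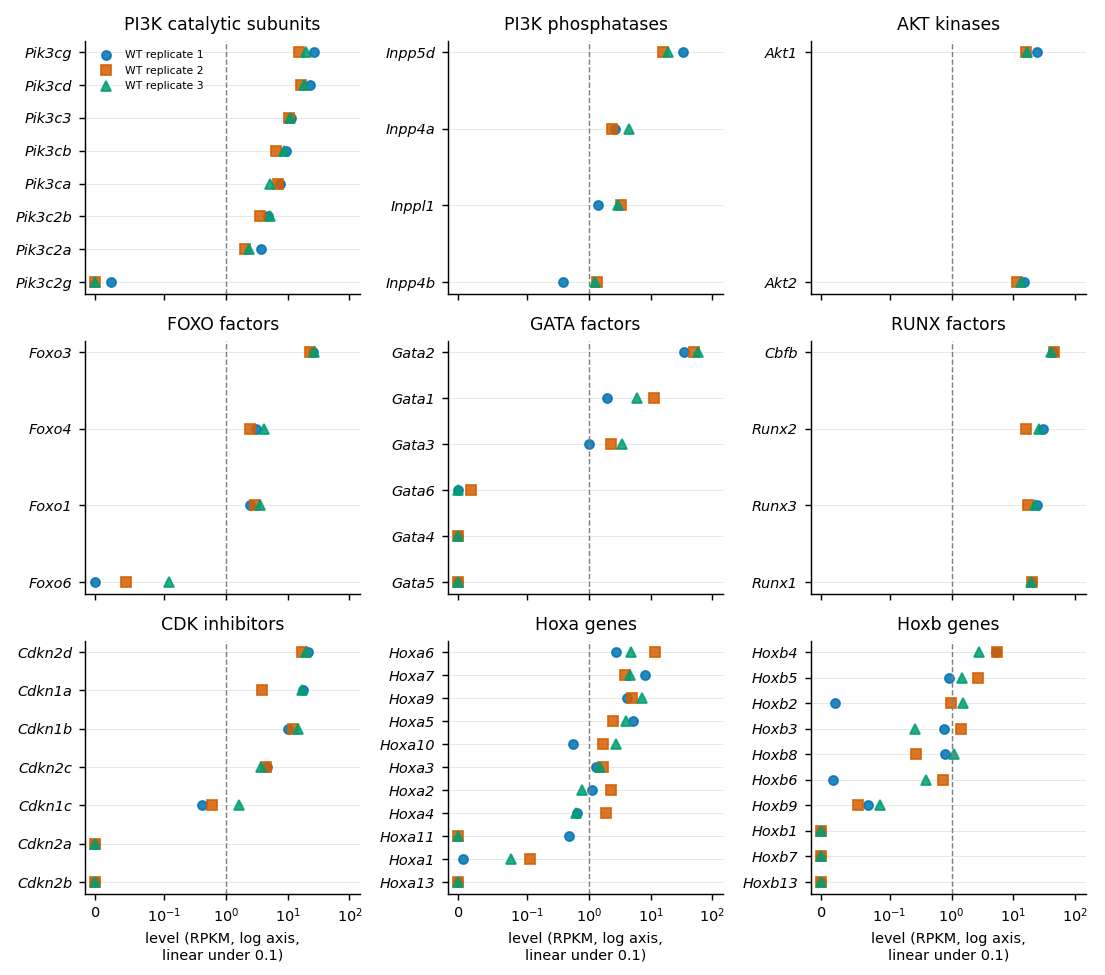
Level in RPKM (log axis, linear under 0.1) of members of 9 gene families in each WT library, with the dashed line at 1 RPKM. Pik3cg and Pik3cd lie right of the other catalytic subunits, Foxo3 and Gata2 lie right of their relatives, and the 3 symbols of Runx1 nearly coincide.

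The genes that differed most among the 3 libraries were found among the 7105 genes with a mean of at least 5 RPKM, where the SD of log2 level had a median of 0.26. The highest library was at least 4 times the lowest for 291 genes (4.1%), and 140 of these have gene models under 200 bases. Among 6281 protein-coding genes 72 varied so (1.15%), of which 34 were highest in WT replicate 3, 21 in WT replicate 1 and 17 in WT replicate 2. Of the 15 neutrophil genes with a mean of at least 5 RPKM 11 varied. None of the 28 HSC transcription factors and none of the 19 cell cycle genes at that level did, which is near the 1.15% of all protein-coding genes and no result about these lists. The number of varying protein-coding genes was 54 without WT replicate 1, 40 without WT replicate 2 and 26 without WT replicate 3, where a range over fewer libraries is in itself smaller.

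Immunoglobulin RNA and Xist had the largest spread. Igkv3-10, a kappa variable segment, had 2434, 4 and 3 counts, and Ighv10-1, a heavy chain segment, had 903, 1 and 0 counts, so that both were seen in WT replicate 1 almost alone. Igkc was shared by WT replicates 1 and 2. Of protein-coding genes, after Ltf, Ear1 (0.17, 38.6 and 5.37 RPKM), Retnlg, a resistin-like gene of neutrophils (0.30, 2.56 and 34.1 RPKM), and Car1 had the largest spread. Ifitm6, a family member of myeloid cells, was at 0.78, 8.34 and 43.5 RPKM while Ifitm2 and Ifitm3 stayed within 1.82-fold. Mt2, a metallothionein, was at 17.7, 20.7 and 1.55 RPKM, with WT replicate 3 far below the others.

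At the other end were genes with nearly equal levels, found among protein-coding genes with a mean of at least 50 RPKM. The splicing factor Rbm39 was at 74.7, 74.1 and 74.7 RPKM, and the phosphatase Ptp4a2 at 76.0, 75.6 and 76.6 RPKM. The cytoskeletal genes Csrp1 and Arpc4, the MHC class I gene H2-D1 (220, 220 and 225 RPKM) and the ribosomal genes Rps29, Rpl39 and Rplp0 were also among the 10 with the smallest SD. These genes were picked for their small SD under the scaling used here, so their evenness follows from that choice.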

How the data were processed

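RNA of sorted LT-HSCs was sequenced on an Illumina HiSeq2000 after cDNA amplification with the Ovation RNA-Seq System V2. The authors trimmed reads with Trim Galore 0.3.7, checked them with FastQC 0.11.4, aligned them to mm10 with STAR 2.5.1b and deposited whole-number counts per gene, which were used here. The annotation release, the treatment of reads with several positions and the joining of technical runs are not given in the sources used here. The normalized table and the 6 columns of other genotypes were not used.

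Exon lengths came from GENCODE M21 on GRCm38 (the assembly of mm10), which held 47224 of the 47643 identifiers once version suffixes were removed and 39106 in the same version. RPKM was computed in R 4.3.3 with TMM factors from edgeR 4.0.16 fitted to the 3 WT libraries. A gene varied when its highest library was at least 4 times the lowest, with 0.5 RPKM added to both and a mean of at least 5 RPKM, and spread is the SD of log2(RPKM + 0.5). The biological coefficient of variation came from edgeR with an intercept only over 15211 genes. Amplification can change levels, and exon length is a union over transcripts, so comparisons between genes are approximate. Intervals and floors (3 counts) cover counting error only, and depth was 40617691 to 60386097 counts per library. The pipeline was tested on simulated data. Some genes of the lists are counted but are not reported here by name.

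No test was made, since the 3 libraries are 1 group and 3 paired libraries cannot give an exact two-sided p under 0.25. The labels call the libraries biological replicates. The genes named are all sorting markers, the 20 protein-coding genes with the highest mean and the 5 genes with most counts, up to 6 leading members of each list with those of other cells under 1 RPKM, the small families, the 20 most varying genes and the 10 most even protein-coding genes over 50 RPKM. Other genes, among them the 20 most varying protein-coding genes, the Ear genes, all granule genes, gene pairs and lower list members, were added after their values were seen. The libraries and lists were chosen with earlier results of these data known. Alternatives were DESeq2 1.42.0 size factors, upper-quartile factors, library totals, TPM, the longest transcript as length, other thresholds, pseudocounts and filters, mitochondrial genes left out and each library left out. Plots were made in matplotlib 3.10.9 under Python 3.11.15.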

Additional observations from a re-analysis of the deposited data

How the results depend on the processing

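Scaling by DESeq2 size factors, upper-quartile factors or library totals moved no count of expressed or varying genes by more than 1.5 times. At a threshold of 5 RPKM, 5804 genes, 5360 protein-coding genes, 11 LT-HSC marker genes and 32 genes of other cells were expressed. Without mitochondrially encoded genes the 100 genes with most counts took 23.7% of a library on average, against 36.0%. In TPM the neutrophil list summed to 14546 on average, against 7297 RPKM. TPM values are on another scale, and the endothelial sum averaged 22.0 in TPM and 19.2 RPKM with the longest transcript as length, against 11.1 RPKM. The number of varying genes was 1193 with a mean of at least 1 RPKM and 1528 with no filter (275 and 338 protein-coding), and 151 with gene models of at least 200 bases, a setting chosen after seeing the data. Leaving out 1 library gave 166 to 183 varying genes and 26 to 54 protein-coding ones, in part because a range over fewer libraries is smaller. For the gene pairs examined, no called order turned in its mean over libraries with TPM or the longest transcript. The log2 ratio of Runx1 to Runx2 and of 1 other pair, whose levels overlap, changed sign with the latter. Single libraries were not followed in this check, and the mean log2 ratio of Ccnd2 to Ccnd3 fell from 1.34 to 0.72 with the longest transcript. No paired test was made, since 1 group was described, and gene pairs were compared only as ratios within each library. Depth limits what can be said of genes near the floor.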
